A study of Mus musculus with 18 samples.

Results

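The 38 genes described here form the antioxidant and glutathione programme linked to the transcription factor Nrf2, out of 26301 genes counted. They were taken by symbol from a list of Nrf2-linked genes and partner enzymes, with no threshold on their measured values, and all 38 were found and tested. RNA came from primary mouse astrocytes taken from newborn (P0) cortex, expanded for about 2 weeks in DMEM with 10% fetal bovine serum, glutamate and antibiotics, and moved to serum-free N2 medium at confluence. In the co-culture groups, hippocampal neurons of newborn TdTomato-positive mice were plated on the astrocytes and left for 2, 4 or 7 days. In the other groups the astrocytes stayed alone, with no treatment, for the same times. All plates were dissociated with TrypLE and sorted by TdTomato fluorescence, with the negative gate set on astrocytes alone, and the series names as its question which astrocyte transcripts neuronal contact regulates. Each of the 6 groups had 3 libraries. Equal replicate numbers mean 1 date in the labels, and every co-culture can be paired with the culture alone of its date and day. Strain, sex and animals per culture are not given in the sources used, and each p-value therefore reflects only the spread among these cultures.

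Nrf2, encoded by Nfe2l2, is held in the cytoplasm and passed to degradation by Keap1, and oxidants or electrophiles that modify Keap1 cysteines let it accumulate. In the nucleus it pairs with small Maf proteins on antioxidant response elements and drives genes for glutathione synthesis, thioredoxin recycling, NADPH supply, and iron and heme handling. In the brain the pathway is known mainly from astrocytes, which export glutathione whose breakdown products neurons take up to make their own.

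Promoter windows from RefSeq (build GRCm38.p6) cover 250 bases before to 50 bases after an annotated start and were found for 32 of the 38 genes, not for Abcc1, Gclc, Gsr, Gsta4, Hmox1 or Prdx6. The antioxidant response element core TGACNNNGC, searched on both strands, occurred in at least 1 window of 10 of these 32 genes (31.2%). Among all 27025 genes with a window the share was 14%. The 10 genes were G6pdx, Gclm, Me1, Mgst1, Nfe2l2, Pgd, Prdx1, Sod1, Srxn1 and Txnrd1. The core can overlap the AP-1 site TGACTCA, and in Me1 and Prdx1 the matched letters were TGACTCAGC, which contain that site. The 5 windows printed here belong, among the genes with a match, to Srxn1, Gclm, Txnrd1 and Prdx1, whose values by day are given further on, and to Me1, whose match lies at its start. All are written 5′ to 3′ on the strand of the gene, and capitals mark the match to the core on either strand. They lie at chr2:152105274-152105573 (plus strand) for Srxn1, chr3:122245307-122245606 (plus) for Gclm, chr10:82858956-82859255 (plus) for Txnrd1, chr4:116685349-116685648 (plus) for Prdx1 and chr9:86695865-86696164 (minus) for Me1.
Srxn1: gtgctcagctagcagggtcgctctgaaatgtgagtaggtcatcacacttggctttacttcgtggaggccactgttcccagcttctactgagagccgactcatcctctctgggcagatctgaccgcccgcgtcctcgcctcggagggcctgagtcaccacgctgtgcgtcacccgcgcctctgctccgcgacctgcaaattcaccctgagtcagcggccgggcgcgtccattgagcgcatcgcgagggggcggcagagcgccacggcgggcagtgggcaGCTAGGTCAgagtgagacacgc
Gclm: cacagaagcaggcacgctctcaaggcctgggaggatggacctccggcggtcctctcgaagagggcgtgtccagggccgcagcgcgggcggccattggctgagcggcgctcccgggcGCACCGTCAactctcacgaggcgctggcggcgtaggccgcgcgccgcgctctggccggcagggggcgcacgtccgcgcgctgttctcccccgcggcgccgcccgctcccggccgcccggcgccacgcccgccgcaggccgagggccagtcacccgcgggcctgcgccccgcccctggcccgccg
Txnrd1: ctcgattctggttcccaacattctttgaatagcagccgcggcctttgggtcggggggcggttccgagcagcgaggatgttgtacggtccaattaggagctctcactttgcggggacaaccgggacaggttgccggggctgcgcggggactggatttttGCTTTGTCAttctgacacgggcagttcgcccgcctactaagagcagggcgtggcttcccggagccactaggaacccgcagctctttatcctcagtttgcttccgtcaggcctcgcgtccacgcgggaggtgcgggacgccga
Prdx1: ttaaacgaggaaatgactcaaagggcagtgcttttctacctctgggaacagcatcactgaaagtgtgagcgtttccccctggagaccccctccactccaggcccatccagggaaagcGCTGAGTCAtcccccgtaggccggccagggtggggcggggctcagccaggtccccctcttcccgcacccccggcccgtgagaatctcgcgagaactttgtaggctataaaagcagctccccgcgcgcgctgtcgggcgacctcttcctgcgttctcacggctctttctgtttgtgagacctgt
Me1: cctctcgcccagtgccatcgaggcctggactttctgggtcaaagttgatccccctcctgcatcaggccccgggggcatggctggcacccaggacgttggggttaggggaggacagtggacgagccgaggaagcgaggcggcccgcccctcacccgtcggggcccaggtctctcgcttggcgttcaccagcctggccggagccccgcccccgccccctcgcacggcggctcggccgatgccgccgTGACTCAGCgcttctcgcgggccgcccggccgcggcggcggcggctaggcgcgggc
In the Srxn1 window the match begins at position 28 after the start, and the 2 AP-1 sites in the same window do not overlap it. The matches of Gclm and Prdx1 begin at positions -134 and -133 and that of Txnrd1 at -92. A match describes these letters only and is not evidence that a factor binds there.

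Total counts ran from 3242459 to 32623556 reads per library, and 16539 genes passed the expression filter. In replicate 1 of astrocytes alone at day 2, 92.5% of the reads fell on 1 gene, Entrez ID 19791, and the 38 genes together had 397 reads, so that 3 reads there equal 20.2 CPM. In replicate 1 of the day 7 co-culture, 40.5% of the reads came from mt-Rnr2, against 5.35% to 18.4% in the 16 other libraries. Values are from all 18 libraries unless said otherwise, and for most day 7 results the value with those 16 and the date as a block is given beside them. Levels are CPM (read counts scaled to the library size corrected by TMM), listed for replicates 1, 2 and 3 in that order. Fold changes are on the log2 scale and carry a standard error (SE). Each library had reads for 9 or 10 of the 10 astrocyte markers. Markers of neurons were detected in cultures alone too, with summed levels of 199 to 371 CPM in the co-cultures and 158 to 437 CPM alone over the 16 libraries, most of it Stmn2 and Map2. The neurofilament gene Nefl had 0 to 62 reads in the co-cultures, above 0 in 5 of 9, and 0 reads in all 9 cultures alone, and Dcx had 0 to 172 reads in the co-cultures and 0 to 4 alone. Other neuron markers did not separate the cultures in this way. The neurofilament gene Nefm had 0 to 51 reads in the co-cultures and 0 to 22 alone, and Elavl3 had 0 to 49 and 1 to 18. The part of such reads in the co-culture differences was not tested. A gene was called at a Benjamini-Hochberg adjusted p under 0.05 in the quasi-likelihood test of edgeR. In bulk RNA, fewer cells of a type and less RNA per cell cannot be told apart.

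Per kilobase of transcript, the level of Prdx6, a peroxiredoxin that reduces phospholipid peroxides, was the highest of the 38, with a median of 508 CPM per kb over the 16 libraries. Next came the ferritin heavy chain Fth1 at 214, the glutathione peroxidase Gpx1 at 148 and the glutathione transferase Gstm1 at 143 CPM per kb. The quinone reductase Nqo1, a widely used Nrf2 marker, was the lowest at 2.12 CPM per kb, just under the cystine transporter Slc7a11 at 2.33. The sensor Keap1 had 9.84 and its client Nfe2l2 104 CPM per kb.

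The members also differed in how far they varied between libraries. Blvrb, which reduces biliverdin, spanned 0.0596 to 18.9 CPM, its lowest value being 1 read. Slc7a11 spanned 13.5-fold, the mitochondrial superoxide dismutase Sod2 11.9-fold and sulfiredoxin, Srxn1, 10.1-fold. The pentose phosphate enzymes Pgd and G6pdx were the steadiest, with 2.12-fold and 2.20-fold ranges, followed by Prdx1 at 2.25-fold.

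**Figure D1:**
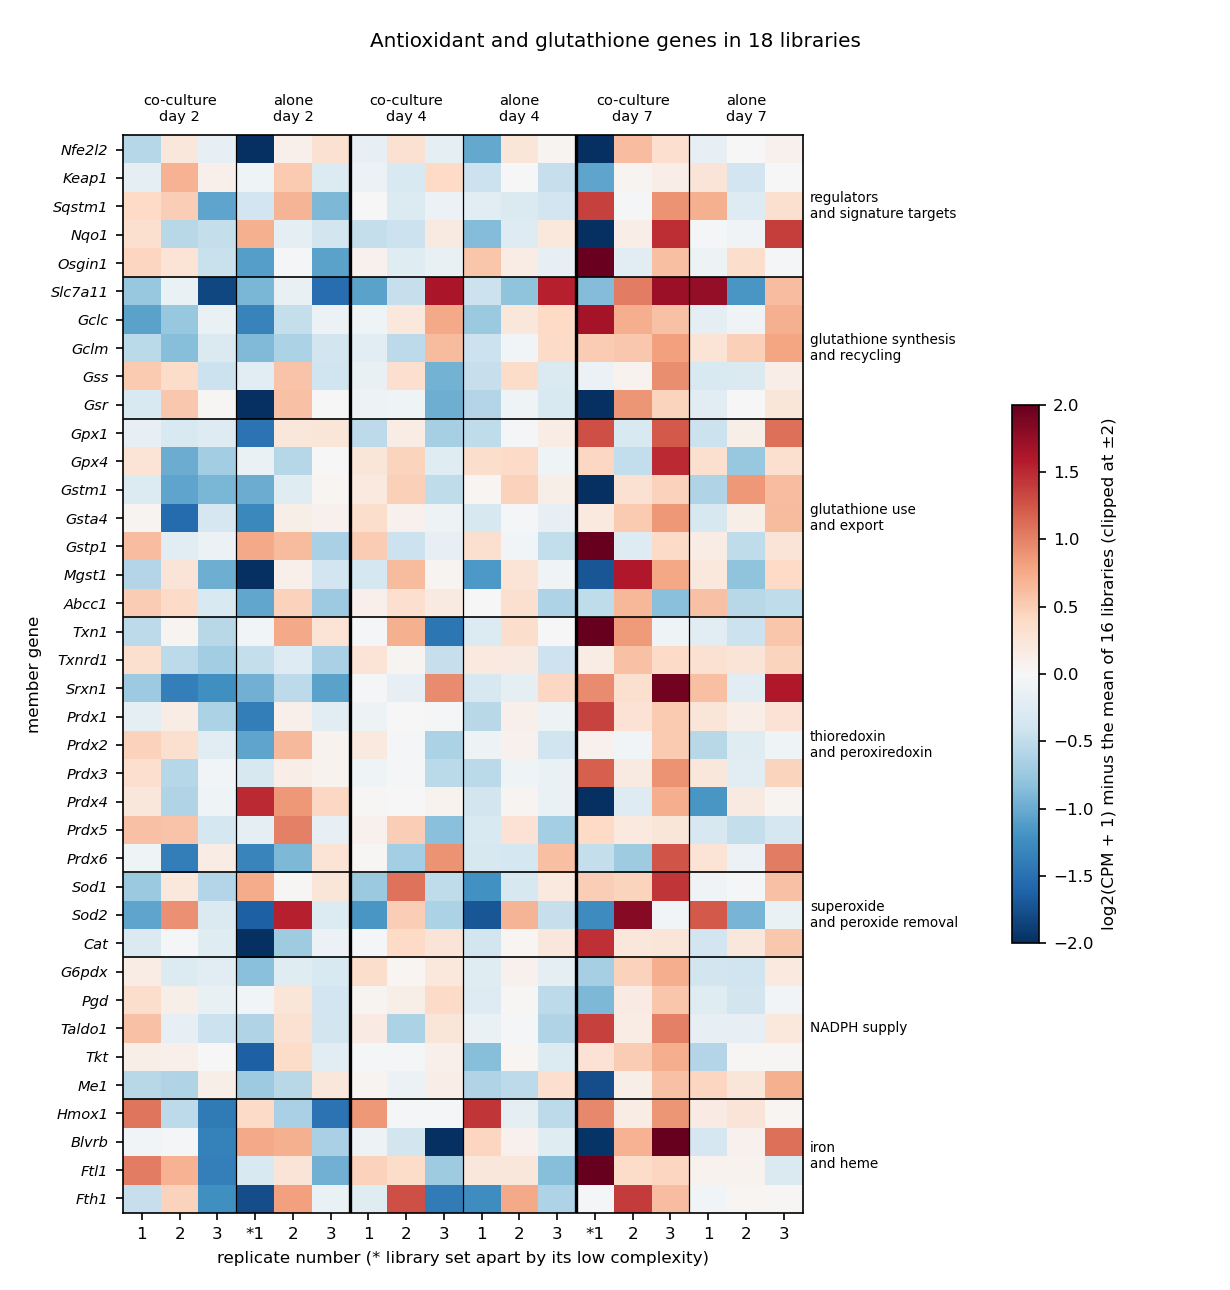
Heat map of the 38 genes (rows, grouped by branch) in 18 libraries (columns, by culture, day and replicate number), with colour showing log2(CPM + 1) minus the mean of 16 libraries and asterisks on the 2 low-complexity libraries. Those 2 columns stand apart, and Srxn1, Gclc and Gclm are redder toward day 7 in both kinds of culture.

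Co-culture with neurons was set against astrocytes alone at each day. With 18 libraries and no block, none of the 38 genes was called at day 2, 4 or 7 or on their average. Neither was any of the 16539 genes tested by edgeR (0%). With 16 libraries and the date as a block, 16 of 17092 genes were called at day 2 and 18 at day 7, none of them a member. At an unadjusted p under 0.05 the 18 libraries gave 0 members at day 2, where 2.35% of all genes passed, 0 at day 4 (0.369%), 5 at day 7 (9.37%) and 2 on average (4.17%). DESeq2 called 0 members in these 4 comparisons. The median log2 fold change of the members was 0.05, 0.16 and 0.51 at day 2, 4 and 7, against 0.04, -0.01 and 0.00 over all genes. With 16 libraries and the date as a block the member medians were -0.11, 0.13 and 0.38. Leaving out 1 library or date at a time moved them to between -0.17 (without replicate 1) and 0.31 (without replicate 2 of day 2 alone) at day 2, 0.05 (without replicate 1 of day 4 alone) and 0.18 at day 4, and, at day 7, 0.22 (leaving out the co-culture of replicate 3) and 0.66. At day 7, 32 of the 38 genes were fitted above 0, against 50.2% of all genes, and 33 of 38 with 16 libraries and the block, against 47.8%. At day 2 these counts were 20 (53.3% of all genes) and 13 (46.1%), and at day 4 they were 27 (48.6%) and 26 (45.9%).

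**Figure D2:**
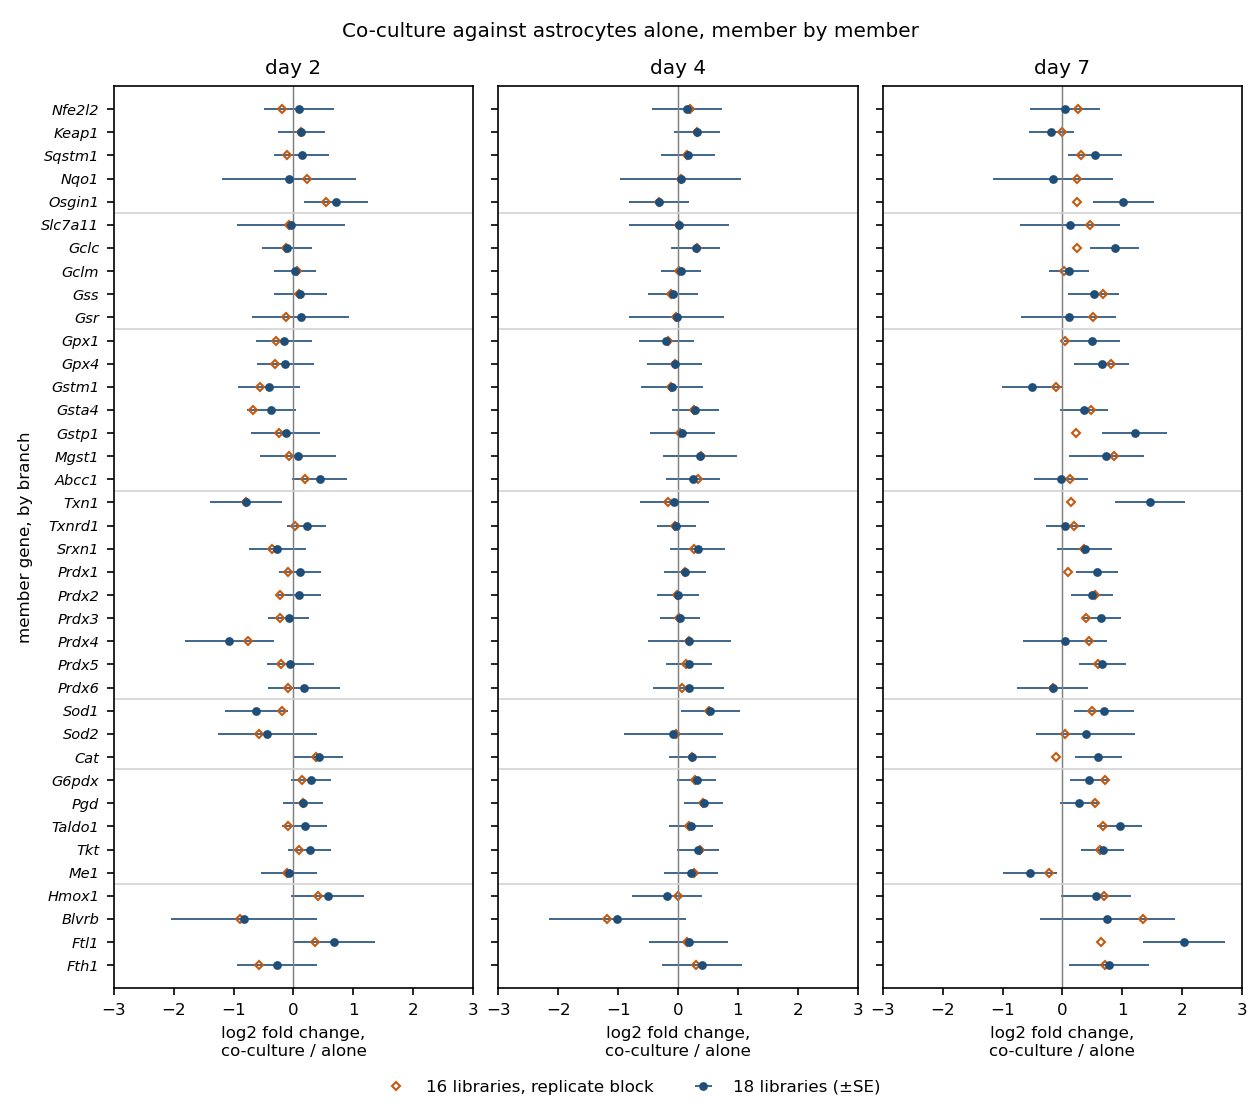
Log2 fold change of co-culture over astrocytes alone (x axis) for each of the 38 genes (y axis, by branch) at day 2, 4 and 7, with blue points for 18 libraries (bars are ± SE) and open orange diamonds for 16 libraries with the replicate block. At day 7 the points of Ftl1, Txn1 and Gstp1 lie well to the right and their diamonds nearer 0.

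The regulators and signature targets comprise Nfe2l2, Keap1, the autophagy adaptor Sqstm1 (p62), which binds Keap1, Nqo1 and the growth inhibitor Osgin1. Nfe2l2 at day 2 had 164, 287 and 219 CPM in co-culture and 33.6, 262 and 301 CPM alone, the first value alone resting on 5 reads. Nfe2l2 at day 4 had 218, 303 and 216 CPM with neurons and 121, 288 and 255 CPM alone. Nfe2l2 at day 7 had 59.7, 377 and 309 CPM with neurons and 219, 245 and 259 CPM alone. The groups overlapped at every day, and without the low-complexity library both day 7 co-cultures lay above the 3 cultures alone. Its fold changes were 0.10 (SE 0.58), 0.15 (SE 0.58) and 0.05 (SE 0.58), each smaller than its standard error, and at day 7 it was 0.26 (SE 0.27) with 16 libraries and the block. Keap1 at day 2 had 31.4, 58.6 and 38.4 CPM in co-culture and 33.6, 51.8 and 29.2 CPM alone. Keap1 at day 4 had 32.7, 28.6 and 47.3 CPM with neurons, against 26.3, 35.3 and 25.8 CPM alone, and at day 7 it had 16.6, 37.1 and 39.3 CPM with neurons and 43.1, 27.1 and 35.8 CPM alone. The groups again overlapped, with fold changes of 0.13 (SE 0.40), 0.31 (SE 0.38) and -0.18 (SE 0.38), the last being 0.00 (SE 0.36) with 16 libraries and the block. Nqo1 at day 2 had 4.87, 2.19 and 2.38 CPM in co-culture and 6.72, 3.11 and 2.66 CPM alone, the first value alone being 1 read. Nqo1 at day 4 had 2.40, 2.51 and 4.35 CPM with neurons and 1.59, 2.92 and 4.45 CPM alone, and at day 7 it had 0, 4.19 and 12.2 CPM with neurons and 3.66, 3.48 and 11.3 CPM alone. At day 7 replicate 3 was the highest in both cultures, and the fold change was -0.16 (SE 1.00). With 16 libraries and the block, without the 0 of the low-complexity co-culture, it was 0.25 (SE 0.67). In this branch 4 of 5 genes were fitted above 0 at day 2 and at day 4 and 3 of 5 at day 7, and none had an unadjusted p under 0.05. Sqstm1 and Osgin1 spanned 174 to 676 and 6.89 to 24.0 CPM over the 16 libraries, with day 7 fold changes of 0.54 (SE 0.45) and 1.02 (SE 0.51), or 0.31 and 0.24 with 16 libraries and the block.

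In glutathione synthesis, Slc7a11 imports cystine, Gclc and Gclm are the catalytic and modifier subunits of the rate-limiting glutamate-cysteine ligase, Gss completes the tripeptide and Gsr reduces its oxidized form. Slc7a11 at day 2 had 15.1, 24.0 and 6.78 CPM in co-culture and 13.4, 23.8 and 8.46 CPM alone. Slc7a11 at day 4 had 11.99, 18.8 and 84.1 CPM with neurons and 19.2, 14.6 and 79.5 CPM alone, with replicate 3 far above the others in both. Slc7a11 at day 7 had 14.0, 54.4 and 88.5 CPM with neurons and 91.8, 11.2 and 41.1 CPM alone. Its fold changes were -0.04 (SE 0.90), 0.02 (SE 0.84) and 0.13 (SE 0.84), far inside this spread, and at day 7 0.46 (SE 0.97) with 16 libraries and the block. Gclc at day 2 had 56.7, 70.5 and 110.2 CPM in co-culture and 47.1, 86.2 and 111 CPM alone, and the groups overlapped. Gclc at day 4 had 114, 139 and 204 CPM with neurons and 71.7, 142 and 159 CPM alone. Gclc at day 7 had 383, 200.5 and 181 CPM with neurons and 105, 115 and 198 CPM alone, the highest value being that of the low-complexity library. The day 7 fold change was 0.87 (SE 0.41), with an unadjusted p of 0.0485 and an adjusted p of 0.533, and with 16 libraries and the block it was 0.24 (SE 0.25). Gclm at day 2 had 34.5, 27.4 and 40.8 CPM in co-culture and 26.9, 32.0 and 38.7 CPM alone. Gclm at day 4 had 43.2, 34.7 and 78.8 CPM with neurons and 36.9, 48.5 and 65.6 CPM alone, and at day 7 it had 71.6, 73.7 and 89.8 CPM with neurons and 60.7, 70.2 and 87.1 CPM alone. Co-culture and alone were close at each day, with fold changes of 0.02 (SE 0.35), 0.05 (SE 0.33) and 0.11 (SE 0.33), the last being 0.03 (SE 0.26) with 16 libraries and the block. Gss and Gsr spanned 15.8 to 60.8 and 24.9 to 92.9 CPM over the 16 libraries, and at day 7 all 5 genes of the branch were fitted above 0, the median being 0.13, or 0.46 in the 16 libraries with the block.

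Glutathione is used by the peroxidases Gpx1 and Gpx4, of which Gpx4 acts on lipid hydroperoxides, by the transferases Gstm1, Gsta4, Gstp1 and Mgst1, and by the exporter Abcc1. Gstp1 at day 2 had 42.4, 23.6 and 25.2 CPM in co-culture and 47.1, 42.7 and 17.1 CPM alone. Gstp1 at day 4 had 39.2, 20.04 and 24.4 CPM with neurons and 34.2, 26.4 and 19.1 CPM alone, and at day 7 it had 132, 22.7 and 35.8 CPM with neurons and 30.4, 18.9 and 32.9 CPM alone. The low-complexity library held the high value, and the other 2 co-cultures overlapped the cultures alone. Its day 7 fold change was 1.20 (SE 0.55) (unadjusted p = 0.0408, adjusted p = 0.515) and was within its error with 16 libraries and the block, at 0.23 (SE 0.39). The other 6 genes had day 7 fold changes from -0.50 for Gstm1 to 0.73 for Mgst1, and Gstm1 was lower in co-culture in all 3 pairs, at 37.5, 217 and 241 CPM with neurons and 115, 318 and 269 CPM alone. Over the 16 libraries Gpx1 spanned 107 to 397 CPM, Gpx4 21.7 to 125, Gsta4 16.8 to 93.7, Mgst1 35.2 to 241 and Abcc1 38.9 to 111 CPM. At day 2, 5 of the 7 genes of this branch were fitted below 0, and 6 of 7 with 16 libraries and the block. Gstm1, Gstp1, Gpx4 and both ferritins have close paralogs or pseudogene copies in the mouse genome, and the sources used here do not say how reads shared with them were counted.

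The thioredoxin branch holds thioredoxin (Txn1), its reductase Txnrd1, sulfiredoxin (Srxn1), which restores overoxidized peroxiredoxins, and Prdx1 to Prdx6. Txn1 at day 2 had 14.2, 21.7 and 14.0 CPM in co-culture and 20.2, 36.1 and 25.5 CPM alone, lower with neurons in all 3 pairs. The first value alone was 3 reads. Txn1 at day 4 had 20.5, 34.9 and 7.10 CPM with neurons and 17.1, 27.0 and 21.1 CPM alone. Txn1 at day 7 had 119.5, 38.7 and 19.7 CPM with neurons and 17.95, 15.3 and 31.2 CPM alone, with the low-complexity library highest. The day 7 fold change was 1.46 (SE 0.59) (unadjusted p = 0.0229, adjusted p = 0.468), against 0.14 (SE 0.48) with 16 libraries and the block. Txnrd1 at day 2 had 483, 269 and 236 CPM in co-culture and 276, 323 and 247 CPM alone. Txnrd1 at day 4 had 464, 399.7 and 280.4 CPM with neurons and 439, 438 and 288 CPM alone, and at day 7 it had 427, 579 and 505 CPM with neurons and 476, 459 and 528 CPM alone. The groups overlapped at every day, with fold changes of 0.22 (SE 0.33), -0.03 (SE 0.32) and 0.05 (SE 0.32), the last being 0.20 (SE 0.28) with 16 libraries and the block. Srxn1 at day 2 had 63.5, 40.2 and 44.4 CPM in co-culture and 53.8, 72.6 and 49.7 CPM alone. Srxn1 at day 4 had 103, 93.5 and 204 CPM with neurons and 83.9, 93.1 and 141 CPM alone, and at day 7 it had 203, 132 and 404 CPM with neurons and 159, 90.0 and 322 CPM alone. Each day 4 and day 7 co-culture was above its partner of the same date while the groups overlapped, and the fold changes were 0.33 (SE 0.46) at day 4 and 0.37 (SE 0.46) at day 7 (adjusted p = 0.873), and 0.36 (SE 0.43) at day 7 with 16 libraries and the block. Prdx2 and Prdx5, at day 7, did not overlap between cultures. Prdx2 had 120.0, 108 and 162 CPM with neurons and 76.6, 95.2 and 106 CPM alone (fold change 0.49 (SE 0.35), adjusted p = 0.708). Prdx5 had 110.3, 96.7 and 99.5 CPM with neurons and 66.8, 59.7 and 66.6 CPM alone (fold change 0.67 (SE 0.39), adjusted p = 0.617). At day 7 there were 4 members whose co-cultures all lay above the cultures alone (Prdx2, Prdx5, Tkt and Ftl1), and 4.29% of all genes did so. Without the 2 low-complexity libraries the count was 10, where 9.37% of all genes did so. Prdx3, a mitochondrial member of the family, spanned 33.5 to 95.3 CPM over the 16 libraries and had a day 7 fold change of 0.65 (SE 0.33). Prdx4 was the 1 member with all co-cultures below the cultures alone at day 2, at 10.7, 5.55 and 8.37 CPM with neurons and 26.9, 17.2 and 12.3 CPM alone, where 2.27% of all genes did so (fold change -1.07 (SE 0.74), adjusted p = 1). The first of these values alone, the highest, was 4 reads in the low-complexity library. At day 4 the 1 member without overlap was Pgd, with 94.1, 98.3 and 118 CPM with neurons and 75.1, 91.9 and 62.8 CPM alone, where 2.05% of all genes lay higher (fold change 0.43 (SE 0.33)).

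Superoxide and hydrogen peroxide are removed by cytosolic Sod1, mitochondrial Sod2 and catalase, Cat. All 3 were fitted above 0 at day 7, with fold changes of 0.69 (SE 0.50), 0.39 (SE 0.82) and 0.60 (SE 0.39). With 16 libraries and the block they were 0.50 (SE 0.45), 0.05 (SE 0.70) and -0.10 (SE 0.26), so Cat crossed 0. Catalase had 167, 70.0 and 70.8 CPM with neurons and 45.6, 70.1 and 86.9 CPM alone, and the high value was again that of the low-complexity library. Sod2 spanned 81.8 to 123 CPM in replicate 3, 66.7 to 455 CPM in replicate 2 and 38.2 to 299 CPM in replicate 1 over the 16 libraries.

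NADPH, the reductant for both systems, is made by the pentose phosphate enzymes G6pdx (the entry step) and Pgd and by malic enzyme, Me1. Taldo1 and Tkt, listed in the same branch, belong to the pentose phosphate pathway but do not make NADPH themselves. In this branch 5 of 5 genes were fitted above 0 at day 4 (median 0.31) and 4 of 5 at day 7 (median 0.45). G6pdx at day 2 had 134, 100.2 and 103 CPM in co-culture and 67.2, 103 and 97.8 CPM alone. G6pdx at day 4 had 155, 124 and 140.1 CPM with neurons and 103, 129 and 106 CPM alone, and at day 7 it had 75.8, 166 and 201 CPM with neurons and 93.9, 91.3 and 139 CPM alone. In the low-complexity library G6pdx was below its partner, and the other 2 day 7 co-cultures were above all cultures alone. The day 7 fold change was 0.45 (SE 0.33) (adjusted p = 0.717) with 18 libraries and 0.72 (SE 0.26) with 16 and the block, with an unadjusted p of 0.0141 and an adjusted p of 1. Taldo1 at day 2 had 139.7, 82.5 and 68.6 CPM in co-culture and 60.5, 115 and 71.3 CPM alone. Taldo1 at day 4 had 104, 59.7 and 110.0 CPM with neurons and 84.0, 90.1 and 60.9 CPM alone, and at day 7 it had 240.0, 103 and 188 CPM with neurons and 82.6, 83.0 and 108 CPM alone. Every day 7 pair was higher with neurons, although replicate 2 of the co-culture lay below replicate 3 alone. Its day 7 fold change was 0.95 (SE 0.37) (unadjusted p = 0.0192, adjusted p = 0.468), and 0.68 (SE 0.36) with 16 libraries and the block. Tkt at day 7 had 181, 209.5 and 244 CPM with neurons and 98.0, 149 and 150.1 CPM alone, with no overlap and a fold change of 0.68 (SE 0.36) (adjusted p = 0.572). Me1 had 19.0, 72.9 and 102 CPM with neurons and 91.2, 79.5 and 111 CPM alone at day 7, lower with neurons in all 3 pairs and by far the most in that of the low-complexity library. Its fold change was -0.54 (SE 0.45) (adjusted p = 0.773), and -0.23 (SE 0.23) with 16 libraries and the block. On the average of the days, with 16 libraries and the block, G6pdx, Pgd and Tkt had fold changes of 0.39 (SE 0.15), 0.38 (SE 0.15) and 0.37 (SE 0.15), with unadjusted p of 0.0171, 0.0268 and 0.0262. These are 3 of the 38 genes, where 3.98% of all genes passed at that level, and their adjusted p was 0.986.

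In iron and heme handling, Hmox1 cleaves heme, and Ftl1 and Fth1 form ferritin, which stores the released iron. Blvrb, biliverdin reductase B, is listed in the same branch. Hmox1 at day 2 had 358, 118 and 63.3 CPM in co-culture and 222, 108 and 60.0 CPM alone. Hmox1 at day 4 had 309, 165 and 166 CPM with neurons and 459, 149 and 118 CPM alone, and at day 7 it had 332, 187 and 315 CPM with neurons and 190.1, 203 and 174 CPM alone. At day 2 and day 4 replicate 1 was the highest in both cultures, and the fold changes were 0.57 (SE 0.61), -0.18 (SE 0.59) and 0.56 (SE 0.59), the last being 0.70 (SE 0.42) with 16 libraries and the block. Ftl1 at day 2 had 169, 135 and 31.7 CPM in co-culture and 67.2, 99.4 and 42.2 CPM alone. Ftl1 at day 4 had 115, 107 and 50.5 CPM with neurons and 97.1, 97.9 and 45.6 CPM alone, and at day 7 it had 777, 108 and 112 CPM with neurons and 87.5, 87.8 and 67.9 CPM alone. The day 7 groups did not overlap, but one value, that of the low-complexity library, was several times the rest. The day 7 fold change of 2.04 (SE 0.68) was the largest of the 38 (unadjusted p = 0.00797, adjusted p = 0.468), and it was 0.65 (SE 0.38) with 16 libraries and the block. Ftl1 and Taldo1 were also the 2 members with an unadjusted p under 0.05 on the average of the days, at 0.97 (SE 0.39) and 0.45 (SE 0.22), both with an adjusted p of 0.982. Of the 5 members with an unadjusted p under 0.05 at day 7 (Ftl1, Taldo1, Txn1, Gstp1 and Gclc), all were higher in co-culture, where 8.10% of all genes were, and none stayed under 0.05 with 16 libraries and the block. In that fit 2 other members did so, G6pdx and Tkt, as did 2.50% of all genes.

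Day 7 was then set against day 2 within each kind of culture. No gene was called by edgeR in either (0%), and at an unadjusted p under 0.05 there were 13 members in co-culture, all higher at day 7, where 10.0% of all genes were higher, and 3 members alone, all higher, where 0.411% of all genes were. With 16 libraries and the date as a block the counts were 18 members higher in co-culture (3.85% of all genes) and 8 higher alone (1.69%), again with no member called (0.0995% of all genes in each). The median fold change of the members was 0.83 in co-culture and 0.22 alone, against 0.03 and 0.01 over all genes, and with 16 libraries and the block it was 0.68 in co-culture and 0.18 alone. These medians ran from 0.39 (without replicate 3) to 0.99 in co-culture and from 0.05 (without replicate 3) to 0.62 (without replicate 2 of day 2) alone when 1 library or date was left out. DESeq2 called 3 members in co-culture, Srxn1, Gclc and Gclm, among 223 genes, and none alone. In the 18 libraries the 13 members were Srxn1, Gclc, Gclm, Prdx1, Prdx3, Txn1, Gpx1, Gpx4, Gsta4, Sod1, Cat, Taldo1 and Ftl1, with fold changes from 0.87 for Taldo1 to 2.32 for Srxn1. Of these, Gpx1, Txn1, Cat, Taldo1 and Ftl1 did not have an unadjusted p under 0.05 with 16 libraries and the block, at 0.63 (SE 0.41), 0.68 (SE 0.47), 0.26 (SE 0.26), 0.69 (SE 0.38) and 0.47 (SE 0.39). Alone the 3 were Srxn1, Gclm and Txnrd1. Among the genes of glutathione use the co-culture fold changes were 1.14 (SE 0.47) for Gpx1, 1.07 (SE 0.46) for Gpx4 and 1.04 (SE 0.40) for Gsta4. Of the iron and heme genes, Hmox1 was at 1.22 (SE 0.45) and Fth1 at 1.25 (SE 0.44) in 16 libraries with the block, both with an unadjusted p under 0.05. Both comparisons share their dates, and the co-cultures at day 7 include one low-complexity library and the cultures alone at day 2 the other.

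Srxn1 averaged 246 ± 141 CPM in co-culture at day 7 and 49.4 ± 12.4 CPM at day 2 (SD, n = 3 each). Alone it averaged 190.3 ± 119 CPM at day 7 and 58.7 ± 12.2 CPM at day 2, where replicate 1 rested on 8 reads. The day 7 and day 2 libraries did not overlap in either kind of culture, and the day 4 values given above lay above every day 2 value in both. Its fold change was 2.32 (SE 0.48) in co-culture (unadjusted p = 1.31e-04, adjusted p = 0.271) and 1.68 (SE 0.49) alone (unadjusted p = 0.00292, adjusted p = 1). With 16 libraries and the block it was 2.19 (SE 0.44) in co-culture (adjusted p = 0.115) and 1.46 (SE 0.46) alone.

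Both subunits of glutamate-cysteine ligase also had higher means at day 7 than at day 2. The day 4 values of Gclm given above overlapped those of day 2 in both kinds of culture, and those of Gclc did so only alone. Gclm averaged 78.3 ± 9.94 CPM at day 7 and 34.2 ± 6.73 CPM at day 2 in co-culture, and 72.6 ± 13.4 CPM at day 7 and 32.5 ± 5.90 CPM at day 2 alone (SD, n = 3 each). The Gclm value of replicate 1 alone at day 2 rested on 4 reads. The days did not overlap in either culture, and the fold changes were 1.19 (SE 0.34) in co-culture and 1.11 (SE 0.35) alone. Gclc averaged 255 ± 111 CPM at day 7 and 79.1 ± 27.7 CPM at day 2 in co-culture, and 139 ± 51.1 CPM at day 7 and 81.3 ± 32.0 CPM at day 2 alone. Its value in replicate 1 alone at day 2 rested on 7 reads. The days did not overlap in co-culture, with a fold change of 1.69 (SE 0.42), and overlapped alone, at 0.70 (SE 0.42). Without the low-complexity libraries and with the block the Gclc values were 1.11 in co-culture and 0.75 alone. The cystine importer Slc7a11 had wider errors, at 1.78 (SE 0.87) in co-culture and 1.61 (SE 0.92) alone.

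Txnrd1 averaged 504 ± 76.4 CPM at day 7 and 329 ± 134 CPM at day 2 in co-culture, and 488 ± 35.8 CPM at day 7 and 282 ± 38.4 CPM at day 2 alone. The days overlapped in co-culture (0.61 (SE 0.33)) and did not overlap alone (0.79 (SE 0.33), unadjusted p = 0.0273). Prdx1, a cytosolic peroxiredoxin that Srxn1 repairs, had 362, 174 and 204 CPM at day 7 and 123, 157 and 90.9 CPM at day 2 in co-culture. Alone it had 168, 155 and 174 CPM at day 7 and 53.8 (8 reads), 153 and 121 CPM at day 2, with no overlap between days in either culture. Its fold changes were 1.00 (SE 0.35) in co-culture and 0.53 (SE 0.35) alone. Prdx4, the peroxiredoxin of the endoplasmic reticulum, and Prdx5 lay below their day 2 values in all 3 day 7 libraries alone, with fold changes of -1.17 (SE 0.75) and -0.77 (SE 0.40), neither called. Their replicate 1 values at day 2 alone rested on 4 and 11 reads. In co-culture the days did not overlap for 8 members, all higher at day 7 (Gclc, Gclm, Gsta4, Srxn1, Prdx1, Sod1, Cat and Tkt), where 4.92% of all genes were. Alone they did not overlap for 5 members higher at day 7 (4.66% of all genes) and 2 lower (2.58%). The summed level of the 10 fibroblast and meningeal markers was lower at day 7, at 298 to 522 CPM against 544 to 870 CPM at day 2 in co-culture and at 271 to 416 CPM against 537 to 549 CPM alone, over the 16 libraries, with 7 to 10 of the 10 detected. Most of this sum was Fn1, at 393 and 202 CPM in replicates 2 and 3 of the day 7 co-cultures and 392 and 478 CPM in those of day 2. Other markers of the list went both ways. In the co-cultures of replicate 2, Dcn had 13.9 CPM at day 7 and 1.92 CPM at day 2. Col3a1 there had 21.7 CPM at day 7 and 17.2 CPM at day 2, and Ptgds 5.35 and 0.98 CPM. Col1a1, Col1a2 and Pdgfrl were lower in CPM at day 7 in the same cultures. The co-cultures of replicate 3 had 20921099 total reads at day 7 and 21309078 at day 2. In them Col3a1 had 404 reads at day 7 and 1131 at day 2, Dcn 175 and 213, and Ptgds 73 and 23. The part of these markers in the differences between days was not tested.

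**Figure D3:**
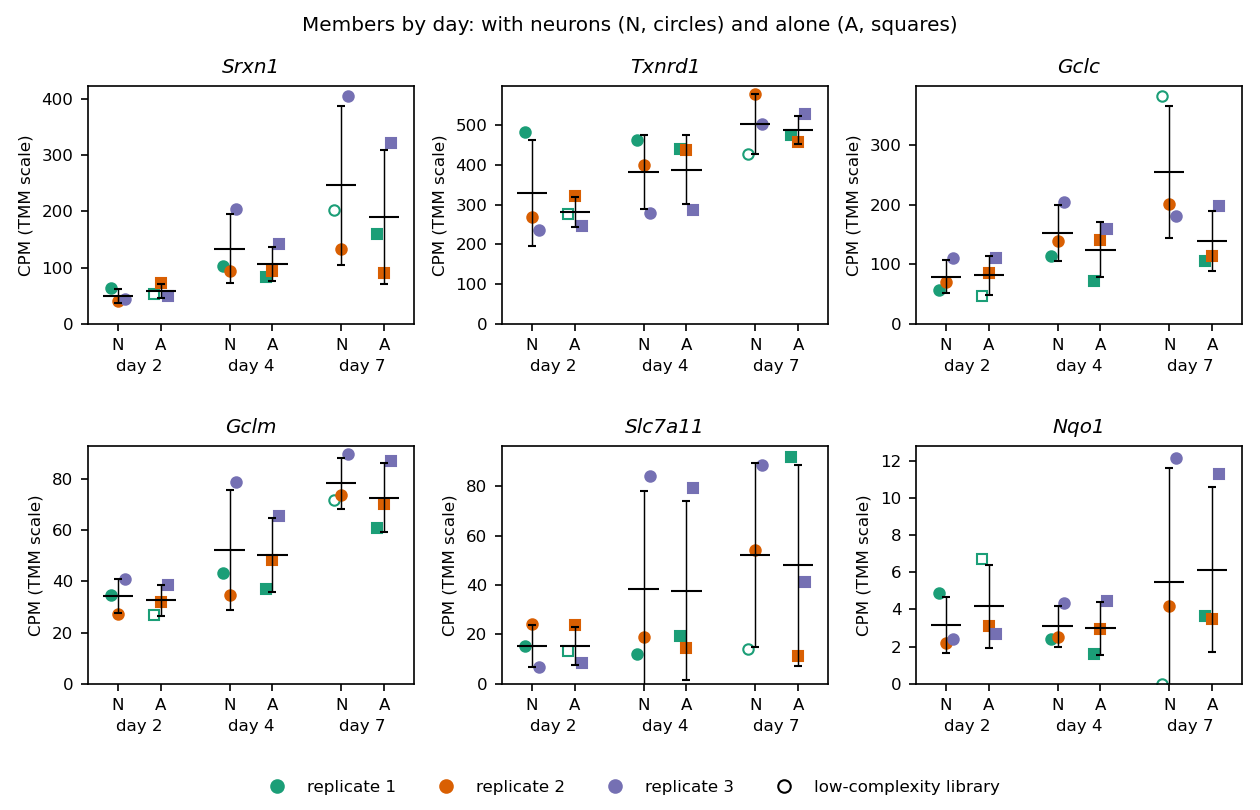
Levels of 6 members (CPM, y axis) by day, with neurons (N, circles) and alone (A, squares), coloured by replicate number, open symbols for the 2 low-complexity libraries, and lines for the mean ± SD of 3 libraries. Srxn1 and Gclm lie higher at day 7 than at day 2 in both cultures, and Nqo1 is high at day 7 only in replicate 3.

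Whether the co-culture effect differed between days was tested directly. None of the 38 genes and none of the 16539 was called by edgeR for day 4 minus day 2, day 7 minus day 2 or day 7 minus day 4 (0% each), and DESeq2 called 0 members. With 16 libraries and the date as a block 14, 23 and 15 genes were called, none of them a member. At an unadjusted p under 0.05 the 18 libraries gave 0, 1 and 0 members, where 1.06%, 5.47% and 3.07% of all genes passed. The 1 member was Txn1, whose co-culture effect was 2.25 (SE 0.84) higher at day 7 than at day 2 (unadjusted p = 0.0152, adjusted p = 0.891), and 0.94 (SE 0.68) higher with 16 libraries and the block.

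More genes were called between dates than between cultures or days, but the tests were unlike. Dates were compared with 6 libraries a side and the group means removed. Cultures and days were compared with 3 libraries a side at each single comparison and no date block. The counts therefore do not show which effect was larger. Each replicate number is 1 date in the labels, so the tests between dates compare 3 dates and do not generalize beyond them. Replicate 2 against replicate 1 gave 242 called genes (1.46%) and 1 called member, replicate 3 against replicate 1 gave 599 (3.62%) and 3, and replicate 3 against replicate 2 gave 652 (3.94%) and 2. Replicate 1 holds both low-complexity libraries, and replicate 3 against replicate 2 compares neither of them but shares their estimate of the spread. Without the 2 it gave 1378 genes (8.06%) and 5 members.

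Prdx6 rose in replicate 3 against replicate 2, with 1371, 2080.2 and 2962 CPM as the lowest, median and highest of the 6 replicate 3 libraries and 472, 761 and 1141 CPM in the 6 of replicate 2. The libraries did not overlap, each of the 6 pairs was higher in replicate 3, and the fold change was 1.39 (SE 0.25) (adjusted p = 0.00327), called in 26 of 26 other settings. Against replicate 1 it rose by 0.99 (SE 0.25) (adjusted p = 0.0310), which held in 17 of 26 settings and not without the 2 low-complexity libraries, at 0.74 (adjusted p = 0.0757). This second call was lost on leaving out any 1 of 7 single libraries (the 3 co-cultures of replicate 3, replicates 1 and 3 of day 2 alone, and both day 4 libraries of replicate 1), at 0.90 to 1.08 with an adjusted p of 0.0516 to 0.0754.

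Among the iron and heme genes, Hmox1, Ftl1 and Fth1 changed with the date. Hmox1 fell in replicate 3 against replicate 1, with 60.0, 142 and 315 CPM as the lowest, median and highest of 6 libraries, against 190.1, 334 and 459 CPM in the 4 libraries of replicate 1 that are not of low complexity. All 6 pairs were lower in replicate 3, with a fold change of -1.24 (SE 0.30) (adjusted p = 0.0250) that held in 17 of 26 settings, and of -1.36 (adjusted p = 0.0223) in 16 libraries. Ftl1 fell in the same comparison, with 31.7, 48.0 and 112 CPM in replicate 3 and 87.5, 106 and 169 CPM in the same 4 libraries of replicate 1. The 2 low-complexity libraries of replicate 1 had 67.2 and 777 CPM. Again all 6 pairs were lower, at -1.52 (SE 0.35) (adjusted p = 0.0207), called in 20 of 26 settings, and at -1.11 (adjusted p = 0.0313) in 16 libraries. Fth1 was high in replicate 2, with 333, 557 and 849 CPM, against 135, 253 and 312 CPM in the same 4 libraries of replicate 1. The 2 low-complexity libraries had 94.1 and 318 CPM, so that replicate 2 lay above all of replicate 1. This rise of 1.37 (SE 0.32) (adjusted p = 0.0349) held in 15 of 26 settings and was lost with 16 libraries, at 1.11 (adjusted p = 0.139). Replicate 3 had 122, 252 and 493 CPM, a fold change of -1.23 (SE 0.32) against replicate 2 (adjusted p = 0.0341), called in 18 of 26 settings and in the 16 libraries, at -1.25 (adjusted p = 0.0109). Leaving out 1 library at a time kept the direction of each of these changes. The call for Fth1 in replicate 2 against replicate 1 was lost on leaving out any 1 of 9 of the 18 libraries (both replicate 2 libraries of day 2, both of day 4, the day 7 co-culture of replicates 1 and 2, and replicate 1 of the day 4 cultures and of day 2 alone), at 1.20 to 1.47 with an adjusted p of 0.0570 to 0.140. That for Hmox1 was lost on leaving out any 1 of 8, all of them libraries of replicate 1 or 3 from day 2 or day 4, at -1.30 to -0.99 with an adjusted p of 0.0512 to 0.101. That for Ftl1 was lost on leaving out any 1 of 5 (the 3 co-cultures of replicate 3, the day 4 culture alone of replicate 3 and the day 2 co-culture of replicate 1), at -1.54 to -1.31 with an adjusted p of 0.0554 to 0.0836. That for Fth1 in replicate 3 against replicate 2 was lost on leaving out any 1 of 8 (every day 4 library of either number, both day 2 libraries of replicate 2, the day 2 co-culture of replicate 3 and the day 7 co-culture of replicate 2), at -1.25 to -0.999 with an adjusted p of 0.0685 to 0.126. The light and heavy ferritin chains had different orders of dates, Ftl1 being lowest in replicate 3 and Fth1 highest in replicate 2.

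Without the 2 low-complexity libraries the members called between dates were partly others. Replicate 2 against replicate 1 had 0 (1.15% of 17092 genes tested). Replicate 3 against replicate 1 had 3 (5.35%), which were Hmox1, Ftl1 and Gclc, with Gclc higher in replicate 3 at 0.91 (SE 0.19) (adjusted p = 0.00865). Replicate 3 against replicate 2 had 5 (8.06%), which were Prdx6 and Me1 as higher and Fth1, Ftl1 and Abcc1 as lower. Me1 had 73.4, 82.2 and 111 CPM in replicate 3 and 44.2, 54.4 and 79.5 CPM in replicate 2, higher in all 6 pairs, with a fold change of 0.61 (SE 0.14) (adjusted p = 0.0142). Abcc1 was just under the threshold, at -0.76 (SE 0.22) (adjusted p = 0.0496).

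Marker genes of other cell types differed between the same dates. Over the 16 libraries the 16 microglia and macrophage markers summed to 5.09 to 13.2 CPM in replicate 3, 103 to 436 CPM in replicate 2 and 6.22 to 67.2 CPM in replicate 1. In replicate 3, 3 to 12 of the 16 markers had a read, and Itgam, a marker shared with other myeloid cells, had 0 to 21 reads, against 229 to 2453 in replicate 2. Not every marker of the list differed in this way. P2ry12 had 0 to 25 reads in replicate 3 and 0 to 30 in replicate 2, and Tmem119 had 0 to 13 and 0 to 11. The 10 astrocyte markers summed to 4009 to 5618 CPM in replicate 3, 1856 to 2436 CPM in replicate 2 and 914 to 1967 CPM in replicate 1. Among them Gfap had 1245 to 1963 CPM in replicate 3 and 387 to 554 CPM in replicate 2. Not all astrocyte markers followed the sum. Aldh1l1 had 162 to 332 CPM in replicate 3 and 152 to 339 CPM in replicate 2, and Slc1a2 had 114 to 274 and 78.6 to 448 CPM. The part of these cell types in the date differences of Prdx6, Hmox1, Ftl1 and Fth1 was not tested.

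**Figure D4:**
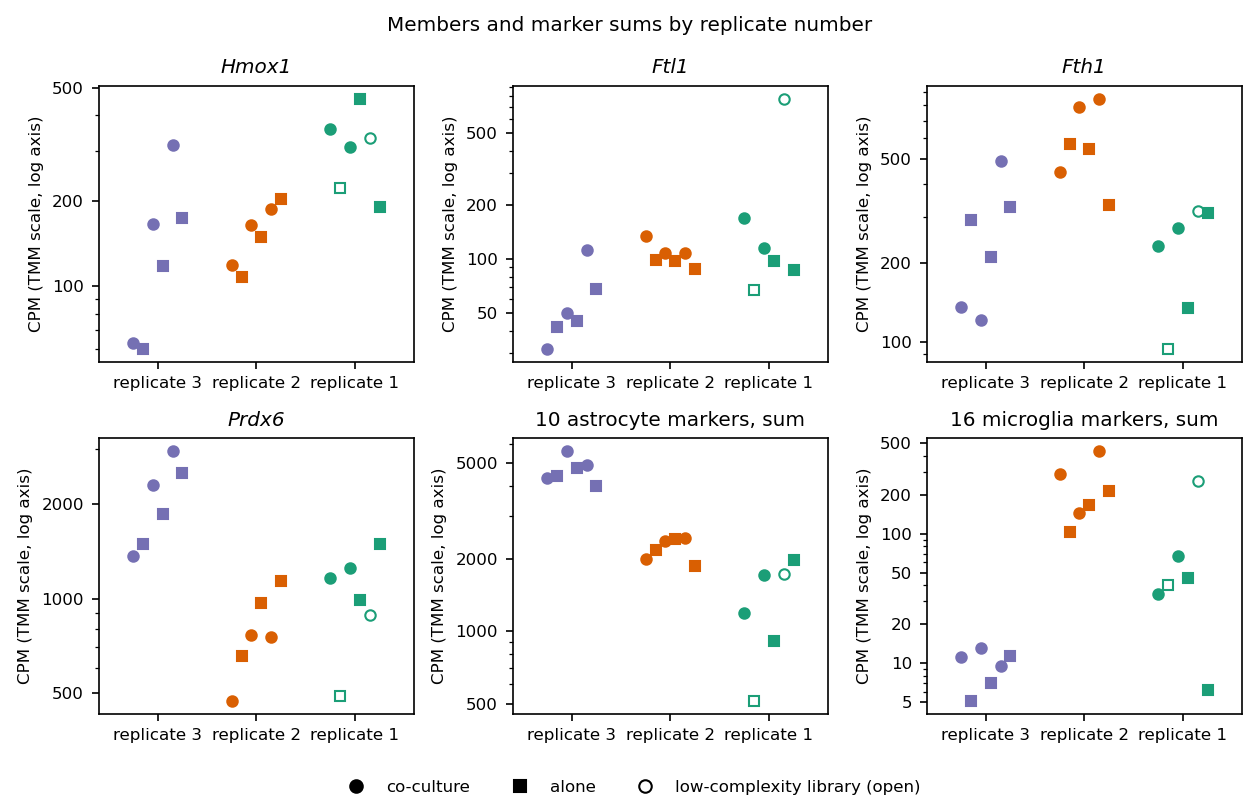
Levels of Hmox1, Ftl1, Fth1 and Prdx6 and the summed levels of the astrocyte and microglia markers (CPM, log axis) by replicate number, with circles for co-cultures, squares for astrocytes alone and open symbols for the 2 low-complexity libraries. The median of Prdx6 is highest in replicate 3 and that of Fth1 in replicate 2, and the microglia sum has its lowest median in replicate 3.

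A wider list of 80 genes of the pathway that are not among the 38, of which 78 were tested, was read in the same fits. It holds the small Maf partners, further glutathione and thioredoxin enzymes, NADPH sources, iron handling and quinone or carbonyl reductases. None of the 78 was called for co-culture against alone or for day 7 against day 2. Their median log2 fold change for co-culture over alone was 0.05, 0.08 and 0.13 at day 2, 4 and 7, and 51 of 78 were fitted above 0 at day 7 (50.2% of all genes). For day 7 over day 2 it was 0.21 in co-culture and 0.01 alone. Between dates 2 of the 78 were called for replicate 2 against replicate 1, which were the extracellular superoxide dismutase Sod3 as higher, at 1.499 (SE 0.25), and the transferase Gstm3 as lower, the Gstm3 call being lost with 16 libraries and the block (adjusted p = 0.0746). Over all genes 1.46% were called. Replicate 3 against replicate 1 had 6 of 78, of which the small Maf proteins Maff, at -2.17 (SE 0.28), and Mafk, at -0.91 (SE 0.25), glutaredoxin Glrx and the secreted peroxidase Gpx3 fell and the 5-oxoprolinase Oplah and the NADPH source Idh1 rose, where 3.62% of all genes were called. The Mafk call was lost with 16 libraries and the block, at an adjusted p of 0.0510. Replicate 3 against replicate 2 had 3 of 78, and Sod3, Gpx3 and Maff all fell, by 1.53, 2.38 and 1.58 on the log2 scale, where 3.94% of all genes were called.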

How the data were processed

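RNA of 18 sorted astrocyte samples was sequenced on an Illumina HiSeq in pools of 6 libraries after rRNA depletion and SMARTer cDNA synthesis, per the labels' protocols. The authors deposited 1 table of read counts per gene, with Entrez IDs as features, and the submitters' processing notes name Subread, featureCounts and the mm9 build. The annotation, strand setting, tool versions and handling of shared reads were not given in the sources used here. 17 further columns of that table, headed as correlation coefficients between samples, were not used. Symbols came from a gene table, which named 24191 of the 26301 IDs.

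From the deposited counts, edgeR 4.0.16 (R 4.3.3, limma 3.58.1) was fitted to all 18 libraries as 6 groups with filterByExpr, TMM scaling, 1 shared dispersion trend and the quasi-likelihood F test, with Benjamini-Hochberg adjustment over 16539 genes. The median biological coefficient of variation was 0.587. Dates were compared in a second fit of the same libraries, with the replicate number added as a block and the dispersions estimated again. The numbers pair the samples, since the labels give same-numbered libraries 1 date and the correlation of deviations around group means was 0.108 to 0.469 within a number and -0.346 to -0.0102 between numbers. Alternatives were DESeq2 1.42.0, other scalings, filters and thresholds, the block, leaving out libraries, and 16 libraries without the 2 of low complexity. The tests were also run on simulated counts for co-culture against alone at day 4, day 7 against day 2 in co-culture, and replicate 3 against replicate 1. Those counts were drawn from fitted means and the dispersion trend only, with no date effect in the comparisons of cultures and days. The outcome is not given here and does not show how the tests behave on the real libraries. No pair of replicates agreed within counting noise, the smallest chi-square per degree of freedom being 116.

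Values in every library are given for 10 fixed members and for any other member with an unadjusted p under 0.05 in a co-culture comparison, and the other members appear by ranges, counts or the largest differences. Those of the other members whose library values are printed were chosen after their values were seen. Pathway genes outside the 38 are named only when called. The members, lists and alternatives were chosen with earlier results of these data known. Levels per kb use the longest protein-coding GENCODE transcript of each gene, and promoter windows use GRCm38.p6 coordinates, which are not those of the mm9 counts. A floor of 3 reads equals 0.0743 to 0.179 CPM in the 16 libraries and covers counting error only.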

Additional observations from a re-analysis of the deposited data

How the results depend on the processing

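No result changed its direction past the threshold. The count of called members stayed at 0 for every comparison of co-cultures with cultures alone, of days, and of the co-culture effect between days, under every alternative run except DESeq2, which called 3 members for day 7 against day 2 in co-culture. The replicate block called no member in these comparisons, with 1 gene each for co-culture against alone at day 7 and for day 7 against day 2 in co-culture, against 0 without it. With 16 libraries and the replicate block together, the genes called were 16 at day 2, 18 at day 7, 17 in each comparison of days, and 14, 23 and 15 for the differences of day 4 minus day 2, day 7 minus day 2 and day 7 minus day 4. DESeq2 called 11 genes at day 2, 7 at day 7, 223 and 5 for the days in co-culture and alone, and 4 for day 7 minus day 2. Between dates, DESeq2 called 5 members and 799 genes for replicate 2 against 1, 7 and 1826 for 3 against 1, and 7 and 1301 for 3 against 2. With only the 2 numbers compared in the fit the counts were 0 and 156, 0 and 201, and 4 and 1098. Without the 2 low-complexity libraries they were 0 members for replicate 2 against 1, 914 genes for 3 against 1, and 5 members and 1378 genes for 3 against 2. An adjusted p under 0.1 gave 3 members and 386 genes for 2 against 1 and 1072 genes for 3 against 1, no filter gave 2 members for 2 against 1, and a mean of at least 10 CPM gave 410 genes for 3 against 2. The cause of these shifts was not tested. Leaving out 1 library or number at a time gave 0 to 1 genes for the difference of day 7 minus day 2 and 0 elsewhere between cultures and days. Between dates it gave 0 to 4 members and 127 to 349 genes for 2 against 1, 0 to 4 and 270 to 1023 for 3 against 1, and 1 to 4 and 343 to 1363 for 3 against 2, the highest gene counts for both comparisons of replicate 3 being without replicate 1 of the day 7 co-culture. With upper-quartile scaling the median over all genes moved by -0.15 at day 7, its largest shift. Depth limits the 2 low-complexity libraries most, where a floor of 3 reads is 20.2 and 0.504 CPM.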
